A study of Mus musculus and Rattus norvegicus with 37 samples.

Results

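The livers described here came from 8 female mice labelled as liver-specific Sirt1 knockouts (L-Sirt1 KO), 4 treated with LNA29 and 4 with saline, out of 37 livers in the series. All 8 were of the C57BL/6J strain, were 15 to 20 weeks old and carried the same knockout label, so the knockout is shared by both groups and is not what is compared. LNA29 combines locked nucleic acid (LNA) antisense oligonucleotides, of which 1 is directed against miR-29a and 1 against miR-29b and miR-29c, given at 20 mg/kg each by a single subcutaneous injection. Control mice received saline, not an LNA of scrambled sequence. Livers were taken from fed mice on day 7 after the dose, and polyadenylated RNA was sequenced from each liver, 1 library a mouse. The comparison asks how liver RNA responds to miR-29 inhibition in mice labelled as lacking hepatic Sirt1. The Cre driver and the deleted part of Sirt1 are not given in the sources used here, and which mice were housed at which of the study's sites is not given either. Every gene with a mean of at least 10 DESeq2-normalized counts over the 8 libraries was included, which left 15885 genes. The series also holds 13 WT/Floxed mouse livers (8 with LNA29, 5 with saline), which are used below only to show where the L-Sirt1 KO labelled livers differ.

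MicroRNAs of the miR-29 family are short RNAs that bind, through a seed at their 5′ end, to matching stretches in the 3′ untranslated regions (3′ UTRs) of messenger RNAs and lower the level or the translation of those messengers. When the microRNA is blocked, its targets can rise. In liver and other organs the family is best known for holding down genes of the extracellular matrix, among them collagens and elastin, and for targeting the DNA methyltransferases. In fatty liver disease and obesity it has also been linked to lipid metabolism, partly through Sirt1, which encodes a deacetylase that acts on regulators of fat oxidation and synthesis.

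The mature sequences show what the family members share and are printed first because every seed match below follows from them. They were read from RefSeq (GRCm38.p6), are written 5′ to 3′, and carry the seed, bases 2 to 8, in capitals.
miR-29a: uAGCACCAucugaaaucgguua
miR-29b: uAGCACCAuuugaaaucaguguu
miR-29c: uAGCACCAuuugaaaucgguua
miR-29a lies at chr6:31062673-31062694 on the minus strand. A copy of miR-29b lies beside it at chr6:31063025-31063047 on the minus strand, and another copy at chr1:195037091-195037113 on the plus strand, next to miR-29c at chr1:195037600-195037621 on the plus strand. The seed is identical in all 3, so their seed matches cannot be told apart. The 7 bases that pair with it in a DNA-style transcript sequence are TGGTGCT, and a further A gives the 8-base match TGGTGCTA.

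Of the genes described below, those that rose most reliably often carried such a match in the 3′ UTR. These windows of 29 bases are shown because the genes that hold them lead the matrix, DNA methylation and single-gene results. They are read from the annotated 3′ UTRs of GRCm38 (GENCODE M21) in the sense of the transcript, with the match in capitals.
Col1a1, chr11:94952527-94952555, plus strand: gaaggaatttcTGGTGCTAtagaagctga
Col3a1, chr1:45348971-45348999, plus strand: aaatgtctcaaTGGTGCTAtaataaataa
Eln, chr5:134703479-134703507, minus strand: ccaagggaaatTGGTGCTAcatgttggtg
Eln, chr5:134703726-134703754, minus strand: ctcatcaacgtTGGTGCTActgcttggtg
Fbn1, chr2:125301163-125301191, minus strand: tgttgtctgttTGGTGCTAgtaaattctc
Lamc1, chr1:153220058-153220086, minus strand: atctgacacacTGGTGCTAttaattattt
Dnmt3a, chr12:3911394-3911422, plus strand: ggggaggtagcTGGTGCTAgcaccagggt
Dnmt3b, chr2:153686616-153686644, plus strand: gtagcccggcaTGGTGCTcatgttctctt
Tet3, chr6:83363767-83363795, minus strand: ccgcttttagtTGGTGCTAaacttctccc
Tdg, chr10:82649666-82649694, plus strand: tgcattttccaTGGTGCTAcagacagcct
Cldn1, chr16:26357571-26357599, minus strand: gatttgcatctTGGTGCTAtcacttaatt
Ccdc28b, chr4:129619308-129619336, minus strand: cggaagcccctTGGTGCTAtggggtcggg
Enho, chr4:41638400-41638428, minus strand: gggttaggagtTGGTGCTAgggccagggc
The Dnmt3b window holds the 7-base match without the A, and the other windows hold the 8-base match. A match is a description of the letters and not evidence of binding.

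Sirt1, on chromosome 10 at 63319005-63381704 (minus strand), was counted at similar levels in all 8 livers. The normalized counts were 551, 567, 595 and 535 in LNA29 mice 1 to 4 and 553, 607, 617 and 568 in saline mice 1 to 4. The groups overlapped, and the change was -0.06 ± 0.09 on the log2 scale (SE, adjusted p = 0.841), with an exact two-sided permutation p of 0.229 where 0.0286 is the smallest that 4 mice against 4 can give. In the WT/Floxed livers, normalized in a table of their own, Sirt1 ranged from 492.7 to 699.1 normalized counts. The count over the whole gene was therefore not near 0 in livers labelled knockout, and a gene-level count cannot show which exons were kept. The study measured hepatic Sirt1 separately by RT-qPCR, which is not part of these files. For this reason the groups are called L-Sirt1 KO labelled throughout. The Sirt1 3′ UTR holds 1 match of 7 bases.

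The libraries were of similar depth, between 42.6 and 66.6 M estimated reads, with 21509 to 22763 genes above 0. In a principal component analysis the first component (20.5% of the variance) placed LNA29 mice on one side, at 6.27 to 35.4, and saline mice on the other, at -33.3 to -17.9, with LNA29 mouse 1 nearest to the saline mice. The second component held 19.7%. The libraries ran on 3 flow cells, named in the labels: A (saline mouse 1, LNA29 mice 1 and 2), B (saline mouse 2, LNA29 mouse 3) and C (saline mice 3 and 4, LNA29 mouse 4). Some saline mice stood apart from their group in coherent ways. Saline mice 2 and 4 had high levels of fat oxidation genes and low levels of lipogenic genes. Saline mouse 3 had clock gene levels far from those of the other mice, and saline mouse 4 had the highest acute phase and adipocyte values. The oxidation, lipogenic, clock and acute phase lists are given below with and without these mice.

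Of the 15885 genes, 189 rose (1.19%) and 108 fell (0.68%) with LNA29 past 4 limits, taken from the study's methods: a p under 0.05, an adjusted p under 0.2, a fold change above 1.2 and more than 50 normalized counts on average. The LNA29 and saline libraries did not overlap for 286 of these 297 genes, against 1104 of all genes tested (6.95%), with LNA29 above saline in 3.65% and below it in 3.3%. At an adjusted p under 0.05 there were 39 genes (0.246%), of which 35 were higher and 4 were lower. All 297 called genes had 1 direction in all 3 flow cells, against 35.3% of all genes tested, but for genes whose groups do not overlap this follows from the non-overlap itself. Fewer genes were called when LNA29 mouse 2, 3 or 4 was left out (64, 63 and 56 higher), and the number was 231 without LNA29 mouse 1. For most called genes below, the number of 16 alternative analyses in which they stayed past the limits is given.

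Genes with a seed match moved upwards as a group. The 11334 genes without a 7-base match in the 3′ UTR had a median log2 fold change of -0.01, against 0.08 for the 2205 genes with any match and 0.13 for the 475 genes with the 8-base match. The middle 50% of the values ran from -0.14 to 0.14 without a match and from -0.04 to 0.35 with the 8-base match, so the classes overlapped widely. Among genes with the 8-base match 42 rose (8.84%) and 0 fell, while among genes without a match 88 rose (0.776%) and 93 fell (0.82%). Genes with 2 or more matches (363) had a median of 0.13, and 25 of them rose (6.89%). Seen from the other side, 88 of the 176 risen genes with an annotated 3′ UTR held a match (50%) and 42 held the 8-base match (23.9%), whereas 2 of 95 fallen genes held a match (2.11%). For comparison, 16.3% of the tested genes and 13.8% of all 21020 annotated 3′ UTRs held the 7-base match, and 3.51% and 2.99% held the 8-base match.

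3′ UTR length differed between these classes, with a median of 978 bases without a match and 2636 with the 8-base match, so the classes were also read within bands of length. In 3′ UTRs of 501 to 1000 bases, 11 of 52 genes with the 8-base match rose (21.2%) against 22 of 2470 without a match (0.891%). In those above 4000 bases the figures were 8 of 128 (6.25%) and 7 of 549 (1.28%). The median log2 fold change of the 8-base class lay above that of the class without a match in all 5 bands of length. In WT/Floxed livers the same classes had medians of -0.00 without a match and 0.09 with the 8-base match. The other 88 of the 176 risen genes with an annotated 3′ UTR held no match. Only the 7-base match, with or without the further A, was searched for, so other kinds of site were not counted.

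**Figure D1:**
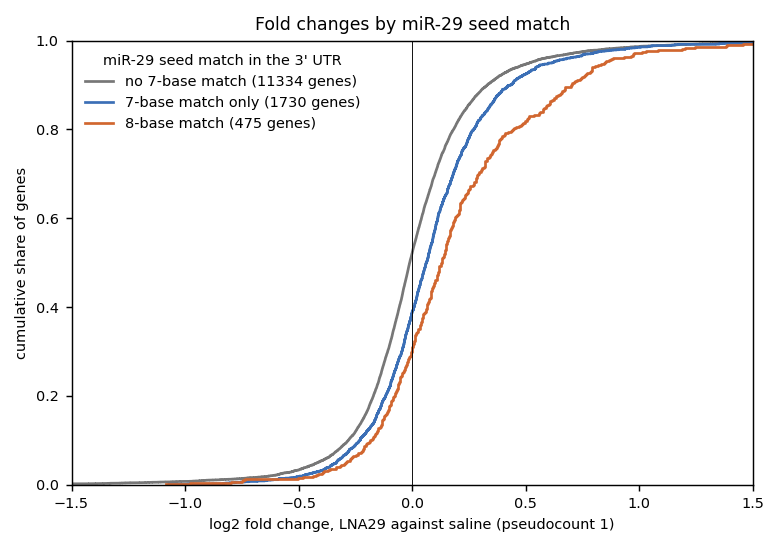
Cumulative share of tested genes (y axis) at or below each log2 fold change of LNA29 against saline (x axis, pseudocount 1) for genes without a match, with the 7-base match only and with the 8-base match. The curve of the 8-base class lies to the right of the others, with a median of 0.13 against -0.01 without a match.

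Among the matrix genes, the fibrillar collagens rose most plainly. Type I collagen, the main fibre of scar and connective tissue, is built from the products of Col1a1 and Col1a2. Col1a1 (chr11:94936224-94953042) had 1245, 1789.8, 1546 and 1733 normalized counts in LNA29 mice 1 to 4 and 495, 319.7, 539.9 and 603 in saline mice 1 to 4. The groups were far apart, with 1579 ± 245 against 489 ± 121 (SD, n = 4 each), a 3.28-fold rise (log2 1.71 ± 0.20 SE, adjusted p = 0.00783). Col1a2 rose (log2 0.85 ± 0.17, adjusted p = 0.089), from 859.8 to 1161 normalized counts in saline mice to 1453 to 2463 in LNA29 mice. Col3a1 (chr1:45311538-45349706), whose product joins type I collagen in loose connective tissue, had 4996, 8042, 8468 and 6276 normalized counts with LNA29 and 2749.8, 1917, 1639 and 1991 with saline. Every LNA29 value was above every saline value, and the rise was 3.34-fold (log2 1.74 ± 0.20, adjusted p = 0.00783). Col5a1, which sets the diameter of collagen fibrils, rose 1.49-fold (log2 0.58, adjusted p = 0.189). Of the 9 tested genes of this list 4 rose and 0 fell, with a median log2 fold change of 0.58 against -0.00 over all genes tested. Col5a2 (log2 0.97, adjusted p = 0.298) did not pass, and Col5a3, Col11a2, Col24a1 and Col27a1 lay between -0.03 and 0.11.

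Elastic fibres and the proteins that organise or crosslink the matrix gave a similar count. Eln, the gene of elastin, had 683, 1088, 1059.6 and 969 normalized counts with LNA29 and 328, 219, 272 and 319 with saline. That is 949.9 ± 185 against 285 ± 50.4 with no overlap, a 3.32-fold rise (log2 1.73 ± 0.18, adjusted p = 0.00783). Sparc, a collagen-binding protein of remodelling tissue, rose 2.09-fold, from 3757 to 4358 normalized counts in saline mice to 6933 to 10102 in LNA29 mice (log2 1.07 ± 0.12, adjusted p = 0.00783). Its annotated 3′ UTR holds no match of the 7 bases. Fbn1, the gene of the microfibril protein fibrillin, had 275, 435, 345 and 329 against 176, 196, 177 and 169.7 normalized counts, and rose 1.90-fold (log2 0.92 ± 0.15, adjusted p = 0.0465). Loxl4, which encodes an enzyme that crosslinks collagen, rose 3.57-fold (log2 1.84 ± 0.38, adjusted p = 0.102), with 842 to 1668 normalized counts against 150.4 to 498. Saline mouse 3 was the low one for Loxl4. Loxl2, of the same enzyme family, rose 1.70-fold (log2 0.77, adjusted p = 0.165). Of 23 tested genes of this list 5 rose and 0 fell, with a median of 0.35.

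Of 23 tested basement membrane genes 5 rose and 0 fell, none at an adjusted p under 0.05, with a median of 0.31. Lamc1, a laminin chain shared by most laminins, had 1481, 1642, 1516 and 1339 normalized counts with LNA29 and 838, 1116, 927 and 955 with saline, a 1.56-fold rise (log2 0.64 ± 0.11, adjusted p = 0.0603). Col4a2 rose 1.91-fold (log2 0.94, adjusted p = 0.0892) and Col4a1 1.59-fold (log2 0.67, adjusted p = 0.186), and both encode the collagen network of basement membranes. These neighbouring genes are transcribed in opposite directions and overlap, and the strand setting of the counting is not given in the sources used here. Nid1, which links laminin to type IV collagen, rose 1.52-fold (log2 0.60, adjusted p = 0.0958), and the perlecan gene Hspg2 rose 1.24-fold (log2 0.31, adjusted p = 0.181). Among 20 matrix proteases and their inhibitors only Mmp2 passed, with 280.2, 465, 496 and 451 normalized counts against 292, 129, 214 and 235. LNA29 mouse 1 lay below saline mouse 1 for Mmp2, so these groups overlapped (log2 0.98 ± 0.26, adjusted p = 0.2).

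Matrix results differed in how far they held across analyses. Col1a1, Col3a1, Eln, Sparc and Fbn1 stayed past the limits in all 16 alternatives, Lamc1 in 15, Col4a2 in 14, Nid1 in 13, Col1a2 in 12 and Loxl4 in 11. Col4a1 stayed in 7, Loxl2 in 6, and Col5a1, Hspg2 and Mmp2 in 4 each. Within flow cells A, B and C the median log2 differences were 0.33, 0.61 and 0.70 for fibrillar collagens, 0.35, 0.43 and 0.23 for basement membrane, and 0.03, 0.77 and 0.25 for the elastic fibre list. Markers of stellate cells and myofibroblasts, the main matrix producers of the liver, gave no call. Their summed normalized counts were 35492 to 38257 in LNA29 mice and 34797 to 40626 in saline mice, which overlap, and limma called 0 of 14 markers, with 1 at an unadjusted p under 0.05. The defining markers Lrat (1000 to 1615 against 1091 to 1384 normalized counts) and Reln (2987 to 3726 against 3037 to 3793) overlapped. Acta2 was 1732 in LNA29 mouse 3 against 77 to 377 in the other 7 mice.

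**Figure D2:**
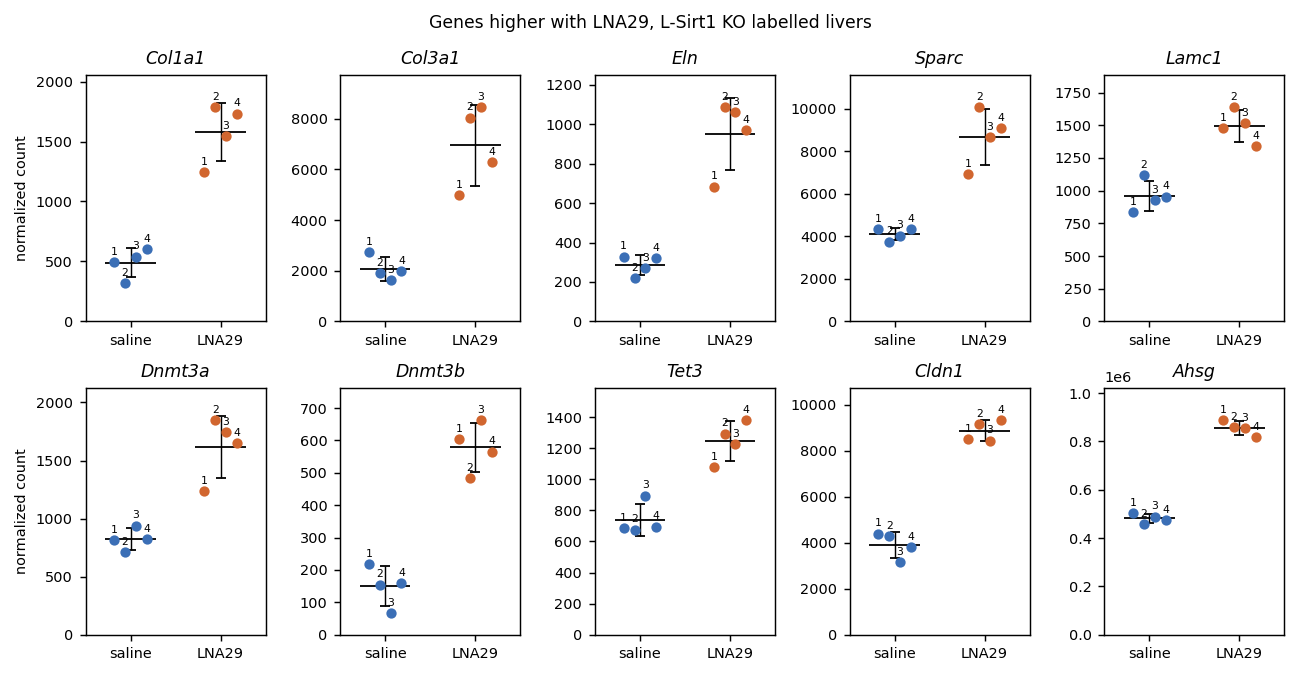
Normalized counts (y axis, linear from 0) of 10 genes in the 4 saline and 4 LNA29 mice, numbered by mouse, with the mean as a line and the SD as a bar. In each panel the LNA29 mice lie above all saline mice, and LNA29 mouse 1 is the lowest of its group for Col1a1, Col3a1, Eln, Sparc, Dnmt3a and Tet3.

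Of 8 tested genes that write, read or erase DNA methylation 5 rose and 0 fell, all 8 had a fold change above 1, and the median log2 fold change was 0.73. Dnmt3b (chr2:153649450-153687730), a methyltransferase that sets new methyl marks, had 605, 484, 663 and 565 normalized counts in LNA29 mice 1 to 4 and 219, 155, 66.9 and 160.4 in saline mice 1 to 4. The lowest LNA29 value was more than the highest saline value, and the rise was 4.15-fold (log2 2.05 ± 0.31, adjusted p = 0.0353). Dnmt3a, the other methyltransferase for new marks, had 1239, 1849, 1741 and 1653 against 812, 709, 939 and 826 normalized counts, a 1.96-fold rise (log2 0.97 ± 0.14, adjusted p = 0.0276). Tet3 and Tdg encode steps of active demethylation, oxidation of the methyl group and removal of the oxidised base. Tet3 rose 1.69-fold, with 1079, 1294, 1227 and 1381 against 685, 677, 895 and 696 normalized counts (log2 0.76 ± 0.12, adjusted p = 0.0465). Tdg rose 1.62-fold, with 1545 to 1960.3 against 977 to 1154 normalized counts (log2 0.70 ± 0.11, adjusted p = 0.0365). Writers and erasers of the mark thus rose in the same livers.

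Uhrf1, which guides maintenance methylation to newly copied DNA, had 88.2, 128, 57.8 and 116 normalized counts against 45.5, 34, 36.1 and 39.5, a 2.38-fold rise (log2 1.25 ± 0.26, adjusted p = 0.102). Dnmt1, the maintenance enzyme itself, did not pass, with 707 to 745 against 531 to 615 normalized counts and groups that did not overlap (log2 0.33, adjusted p = 0.206). Tet2 (log2 0.44, adjusted p = 0.277) and Tet1 (log2 0.24, adjusted p = 0.899) did not pass either. The 3′ UTRs of Dnmt3a, Dnmt3b, Tet3 and Tdg hold 6, 1, 8 and 3 matches, and that of Uhrf1 holds 0. Dnmt3a, Dnmt3b, Tet3 and Tdg stayed past the limits in all 16 alternatives and Uhrf1 in 10. The median log2 differences of the list within flow cells A, B and C were 0.86, 0.72 and 0.68. Protein levels and DNA methylation itself are not part of these data.

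Among other genes reported in the literature as miR-29 targets, movement was small. Of 26 tested, Bbc3 passed, which encodes the cell death protein PUMA, with 1036, 1070.5, 1008 and 1214 normalized counts against 886, 599, 647 and 599 (log2 0.68 ± 0.14, adjusted p = 0.0999). It stayed past the limits in 7 of 16 alternatives. The median of the list was 0.15 against -0.00 over all genes. Mcl1 (log2 0.26, adjusted p = 0.348) and Cdk6 (log2 0.47, adjusted p = 0.204) did not pass. Lpl, the lipoprotein lipase gene with an 8-base match, had 4301, 2261, 2009 and 2142 normalized counts against 1961, 1585, 1487 and 1408 without overlap (log2 0.67 ± 0.23, adjusted p = 0.304). LNA29 mouse 1 was the high one for Lpl. The same mouse had high adipocyte marker counts. Saline mouse 4 had the highest adipocyte marker counts of all and the lowest Lpl value (1408). A link between adipocyte markers and Lpl was not tested.

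Several single genes rose at a low adjusted p, by limma. Cldn1, a claudin of tight junctions, had 8521, 9173, 8448 and 9345 normalized counts with LNA29 and 4401, 4299.8, 3151 and 3823 with saline, a 2.28-fold rise (log2 1.19 ± 0.11, adjusted p = 0.00603). Ifi30, a lysosomal thiol reductase, had 1522, 1395, 1558 and 1422 against 740.5, 666, 765 and 748 (log2 1.01 ± 0.09, adjusted p = 0.00409). Ccdc28b rose 2.61-fold, with 435 to 566 against 148 to 239 normalized counts (log2 1.38 ± 0.16, adjusted p = 0.00783). Ing4, a chromatin reader, rose 1.77-fold (log2 0.82 ± 0.09, adjusted p = 0.00783), and Taf7, a subunit of the general transcription factor TFIID, rose 2.37-fold (log2 1.25 ± 0.14, adjusted p = 0.00783). These 5 genes, chosen after their values were seen, stayed past the limits in all 16 alternatives. Cldn1, Ing4, Ccdc28b and Taf7 hold a match in the 3′ UTR, and Ifi30 had no 3′ UTR entry to search. Exons of Ccdc28b and Ing4 overlap other annotated genes.

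The largest rises by fold change included genes of low level or of multigene families. Hsd3b5, a steroid dehydrogenase normally high in male liver, had 47.3, 206, 189 and 82.5 normalized counts against 31, 38.2, 7.71 and 11.4, a 5.85-fold rise (log2 2.55 ± 0.59, adjusted p = 0.148). Serpina1e, of the alpha-1 antitrypsin family, had 3972, 19931, 9557 and 5602 against 1944, 1283, 1437 and 2358 normalized counts (log2 2.24 ± 0.43, adjusted p = 0.0881). H19, an imprinted non-coding RNA of fetal liver, had 275, 442, 79 and 159 against 37.6, 43.5, 26.9 and 74.5 (log2 2.19 ± 0.50, adjusted p = 0.142). Its highest saline value, in mouse 4, lay just under its lowest LNA29 value. Mup2, a major urinary protein gene, had 388, 345, 349.8 and 419.7 against 112, 65.2, 157 and 116 (log2 1.79 ± 0.24, adjusted p = 0.0189). Fam81a, whose function is little known, had 95.3, 147, 145 and 151 against 37.3, 21.9, 52.6 and 31 (log2 1.93 ± 0.28, adjusted p = 0.026). Hsd3b5, Serpina1e and Mup2 have near-identical relatives, so the split of reads among the copies is uncertain. Mup2 and Fam81a stayed past the limits in all 16 alternatives, Serpina1e in 14, H19 in 9 and Hsd3b5 in 7.

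These rises did not extend to the sex-biased or fetal genes as lists. Of 17 tested male-biased liver genes 2 rose, Hsd3b5 and Serpina1e, with a median of 0.14. Of 28 female-biased genes Acot3 fell and 0 rose, with a median of 0.09, although 9 had an unadjusted p under 0.05, against 11.2% of all genes tested. Their values were uneven among the mice, as in Cyp3a41a, a cytochrome P450, with 15914, 4424, 9386 and 3549 normalized counts against 490, 220, 1661 and 7287 (log2 2.70, adjusted p = 0.326). Of 10 fetal and imprinted genes only H19 rose, and the median was -0.00. Igf2, its imprinted neighbour, was at 19 to 56 normalized counts with LNA29 and 14 to 59 with saline (log2 0.21, adjusted p = 0.916), and the fetal marker Afp at 29 to 62 and 29 to 68 (log2 -0.07, adjusted p = 0.956).

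Secreted liver proteins moved in both directions. Ahsg, which encodes fetuin-A, an abundant plasma protein that inhibits the insulin receptor, had 888425, 857733, 856017 and 816219 normalized counts with LNA29 and 503257, 456413, 489190.0 and 475794 with saline. The spread within groups was small, 854599 ± 29603 against 481164 ± 19949.7, and the rise was 1.78-fold (log2 0.83 ± 0.09, adjusted p = 0.00783). Igfbp1, an insulin-repressed binding protein of insulin-like growth factors, rose 2.28-fold, with 11057, 19309, 17642 and 10631 against 5592, 7286, 6933 and 5224 normalized counts (log2 1.19 ± 0.21, adjusted p = 0.0603). Igfbp2 had 39379 to 54167 against 30383 to 39875, with LNA29 mouse 3 just below saline mouse 1 (log2 0.55 ± 0.13, adjusted p = 0.148). Enho, the gene of the peptide adropin, rose 1.78-fold, with 2350.0 to 3319 against 1199 to 1848 normalized counts (log2 0.83 ± 0.16, adjusted p = 0.0814). Its exons overlap those of Dnaic1.

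In the other direction, Inhbe, the activin E subunit made by hepatocytes, fell to 808, 627, 858 and 656 normalized counts from 1792, 2364, 1293 and 2089 in saline mice. That is 737 ± 113 against 1885 ± 458, 2.51-fold lower (log2 -1.33 ± 0.19, adjusted p = 0.0239). Ahsg, Igfbp1 and Inhbe stayed past the limits in all 16 alternatives, Enho in 15 and Igfbp2 in 6. None of Ahsg, Igfbp1, Igfbp2 and Inhbe has a match in the annotated 3′ UTR. Of 15 hepatokines 3 rose and 1 fell with a median of -0.12, and of 11 genes of insulin-like growth factor binding 2 rose with a median of 0.18.

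In glucose metabolism, G6pc, the enzyme that releases free glucose at the end of gluconeogenesis, rose 1.68-fold. Its normalized counts were 32739, 37167, 41069 and 45089 with LNA29 and 21078, 22002, 22166 and 27679.9 with saline, with no overlap (log2 0.75 ± 0.12, adjusted p = 0.0538), and it stayed past the limits in all 16 alternatives. Its 3′ UTR holds 1 match of 7 bases. Gpi1, a glycolytic isomerase, fell (log2 -0.38, adjusted p = 0.188), past the limits in 4 of 16 alternatives. The other 13 of 15 tested genes of gluconeogenesis and glycolysis did not pass.

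Cell cycle genes were higher with LNA29 at low levels. Of 22 tested, 5 rose and 0 fell, 13 had an unadjusted p under 0.05, and the median was 0.68. For this count and the like counts below, 1779 of all 15885 genes (11.2%) had an unadjusted p under 0.05. The 5 that rose are Mcm3, Mcm4, Mcm5 and Mcm6, subunits of the helicase that opens replication origins, and the topoisomerase gene Top2a. Mcm5 had 245, 326, 277 and 419 normalized counts against 122, 118, 192 and 118, a 2.30-fold rise (adjusted p = 0.0645), with saline mouse 3 the high one of its group. Mcm6 had 329, 715, 486 and 752 against 310.5, 299, 261 and 249, with LNA29 mouse 1 close to the saline mice (log2 0.96 ± 0.24, adjusted p = 0.181). Top2a had 148, 252, 181 and 295 against 113, 126, 117 and 115 (log2 0.84, adjusted p = 0.178). Mcm5 stayed past the limits in 15 of 16 alternatives, Mcm3 and Mcm4 in 9, Mcm6 in 6 and Top2a in 5. The proliferation marker Mki67 did not pass, with 158, 244, 233 and 292 against 158, 150, 136 and 132 normalized counts (log2 0.65, adjusted p = 0.23). Within flow cells A, B and C the medians were 0.67, 0.37 and 1.01. The count of risen genes was 2 with the flow cell as a covariate and 1 without LNA29 mouse 2, LNA29 mouse 4 or saline mouse 4, while the median stayed between 0.53 and 0.79 in all 16 alternatives. Of 16 p53 targets, Bbc3 and the peptide transporter gene Tap1 rose, with a median of 0.26.

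**Figure D3:**
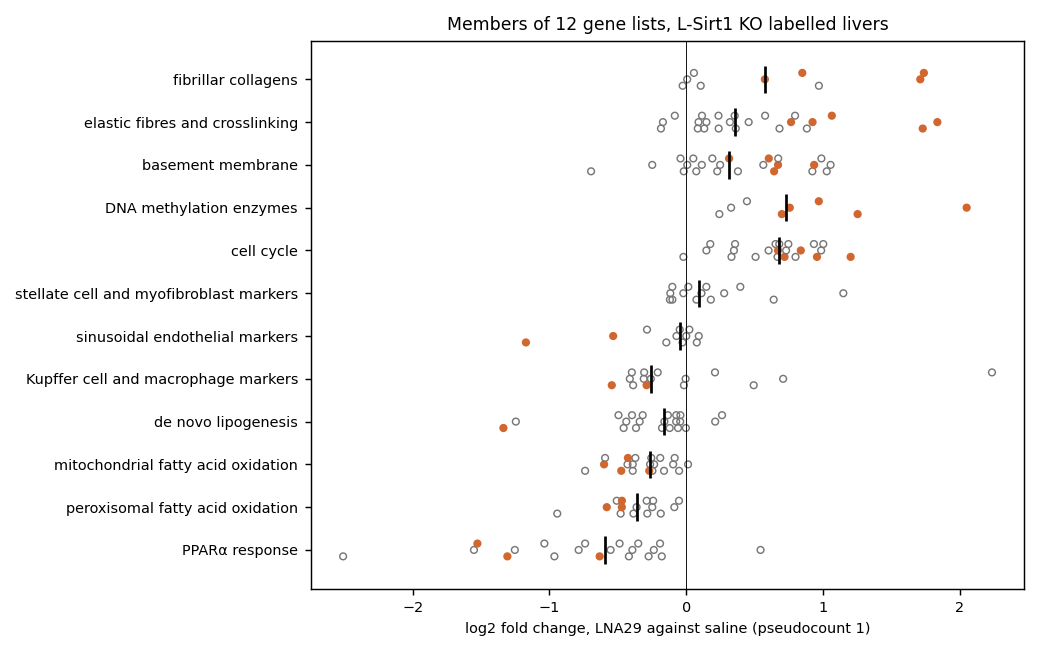
Log2 fold change of LNA29 against saline (x axis, pseudocount 1) for each tested member of 12 gene lists (rows). Filled points passed the 4 limits, open points did not, and the black bar is the list median. DNA methylation (0.73), cell cycle (0.68) and fibrillar collagens (0.58) lie to the right, and the PPARα response (-0.59) to the left.

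Genes of fatty acid oxidation were lower with LNA29, but their levels in saline mice fell into pairs. PPARα is the nuclear receptor that switches on fat burning in the fasted liver, and Cyp4a14, a fatty acid hydroxylase, is among its most responsive targets. Cyp4a14 had 23514, 22941, 21455 and 19118 normalized counts in LNA29 mice 1 to 4 and 39367, 120452, 33852 and 95016 in saline mice 1 to 4. All saline mice lay above all LNA29 mice, and saline mice 2 and 4 far above saline mice 1 and 3 (log2 -1.53 ± 0.37, adjusted p = 0.158). Acot3, an acyl-CoA thioesterase, fell 2.48-fold, with 5888, 3259, 4909 and 1755 against 6274, 11823, 9099.6 and 9201 (log2 -1.31, adjusted p = 0.192). Fabp2, a fatty acid binding protein, had 1084, 1208, 1260.0 and 1027 against 1586, 2202, 1432 and 1962 (log2 -0.63 ± 0.14, adjusted p = 0.139). Fgf21, a fasting hormone and PPARα target, had 76.4, 66.5, 73.3 and 18.6 against 199, 1034, 80 and 476 normalized counts. The groups did not overlap, yet saline mouse 3 was close to the LNA29 mice, and the change was -2.51 ± 0.74 on the log2 scale (adjusted p = 0.247). Of 20 tested genes of the PPARα response 3 fell and 0 rose, 19 had a fold change below 1, and the median was -0.59.

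Enzymes of the oxidation pathways changed by less and more evenly. Of 20 mitochondrial genes 4 fell and 0 rose, 19 had a fold change below 1, and the median was -0.27. Decr1, an auxiliary enzyme for unsaturated fatty acids, had 8841, 9336, 8482 and 8728 normalized counts against 11573, 14701, 11567 and 16406 (log2 -0.60 ± 0.12, adjusted p = 0.0963). Eci1, an isomerase of the same branch, fell by 0.47 on the log2 scale (adjusted p = 0.088), Acadl, the long-chain acyl-CoA dehydrogenase, by 0.43 (adjusted p = 0.141), and Acaa2, the last thiolase, by 0.27 (adjusted p = 0.189). Of 15 peroxisomal genes 3 fell and 0 rose, all 15 had a fold change below 1, and the median was -0.36. Ech1, which handles fatty acids with 2 double bonds, had 16799.5, 14481, 13694 and 14379.5 against 20017, 23198, 20533 and 25130.4 normalized counts (log2 -0.58 ± 0.10, adjusted p = 0.0603). The thiolases Acaa1a (log2 -0.47, adjusted p = 0.148) and Acaa1b (log2 -0.47, adjusted p = 0.163) also fell. Ech1 stayed past the limits in all 16 alternatives, Eci1 in 12, Decr1 in 10, Cyp4a14 and Fabp2 in 8, Acadl, Acaa1a and Acaa1b in 6, Acot3 in 5 and Acaa2 in 4. Cyp4a14, Acot3 and the Acaa1 pair have close relatives among which reads may be split.

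Other genes of fat oxidation did not pass the limits. Cpt1a, the carnitine transferase that admits fatty acids to mitochondria, had 10931, 15346, 10499 and 12477 normalized counts against 10561, 23395, 16948 and 27164 (log2 -0.59, adjusted p = 0.444). Saline mouse 1 lay within the range of the LNA29 mice for Cpt1a. The carrier gene Fabp1 had 139190.0 to 165313 against 169683 to 269149 without overlap (log2 -0.55 ± 0.15, adjusted p = 0.211). Acot1 had 1881 to 2783 with LNA29 and 3229.7, 13667, 2239 and 12010.3 in saline mice 1 to 4 (log2 -1.25, adjusted p = 0.424), with the same pair high. Of 6 genes of ketone body synthesis limma called 0, with 3 at an unadjusted p under 0.05, and the median was -0.21.

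The size of these falls varied with saline mice 2 and 4, which stood out by the values of these same genes. Leaving them out was therefore bound to shrink the falls. Without saline mice 2 and 4, an alternative chosen after the data were seen, the median log2 fold change was -0.15 for the PPARα response (1 gene rose and 1 fell), -0.13 for mitochondrial oxidation (2 fell) and -0.15 for peroxisomal oxidation (1 fell). These medians stayed below 0, with 13 of 20, 18 of 20 and 11 of 15 genes below 0. The median of ketone body synthesis was then 0.03, with 3 of 6 genes below 0. Within flow cells A, B and C the medians were -0.05, -1.42 and -0.70 for the PPARα response, -0.07, -0.53 and -0.32 for mitochondrial, and -0.09, -0.70 and -0.41 for peroxisomal oxidation. Flow cells B and C hold saline mice 2 and 4, and A holds neither. With the flow cell as a covariate 0 mitochondrial, 1 peroxisomal and 1 PPARα gene fell, and without saline mouse 1 the numbers were 8, 5 and 7. They were 3, 3 and 3 without LNA29 mouse 1 and 3, 3 and 6 without saline mouse 3. Without LNA29 mouse 2, 3 or 4, or saline mouse 2 or 4, 0 PPARα genes fell each time. The peroxisomal number was then 1 each time, and the mitochondrial numbers were 1, 0, 0, 1 and 2.

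Lipogenic genes showed the opposite split among saline mice. Fasn, the fatty acid synthase gene, had 25849, 25925, 32659 and 25784 normalized counts in LNA29 mice 1 to 4 and 66972, 24896, 53282 and 22578 in saline mice 1 to 4. Saline mice 1 and 3 were high and saline mice 2 and 4 were in or below the LNA29 range (log2 -0.46 ± 0.32, adjusted p = 0.644). Thrsp, a lipogenic regulator, had 5039 to 11851 with LNA29 and 25394, 3697, 26002 and 3219.8 with saline (log2 -0.34 ± 0.70, adjusted p = 0.887). Elovl6, which elongates fatty acids, had 4682 to 5716 with LNA29 and 13154, 5198, 9993 and 4423 with saline (log2 -0.49 ± 0.31, adjusted p = 0.594). Acly (log2 -0.07 ± 0.28, adjusted p = 0.943) and Acss2 (log2 -0.06 ± 0.28, adjusted p = 0.955), which supply acetyl-CoA, were split in the same way, and the sign of both changed among the alternatives. Pklr, the liver pyruvate kinase gene, had a log2 change of -0.44 (adjusted p = 0.53).

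Of 21 genes of de novo lipogenesis 1 fell, Fitm1, a lipid droplet protein gene, with 123, 93.2, 114 and 122 normalized counts against 375, 221, 343 and 232 (log2 -1.34 ± 0.20, adjusted p = 0.0332). Fitm1 stayed past the limits in all 16 alternatives, and it had no match. The median of the list was -0.16. Without saline mice 2 and 4 it was -0.51, and 6 genes fell. The size of the lipogenic fall thus varied with the control mice, but those 2 were low for these same genes. Leaving them out was therefore bound to deepen it. Of 25 genes of cholesterol synthesis and uptake 1 fell and 0 rose, with a median of -0.20. Feeding state was recorded as fed for all mice, and its part in the split of saline mice was not tested.

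**Figure D4:**
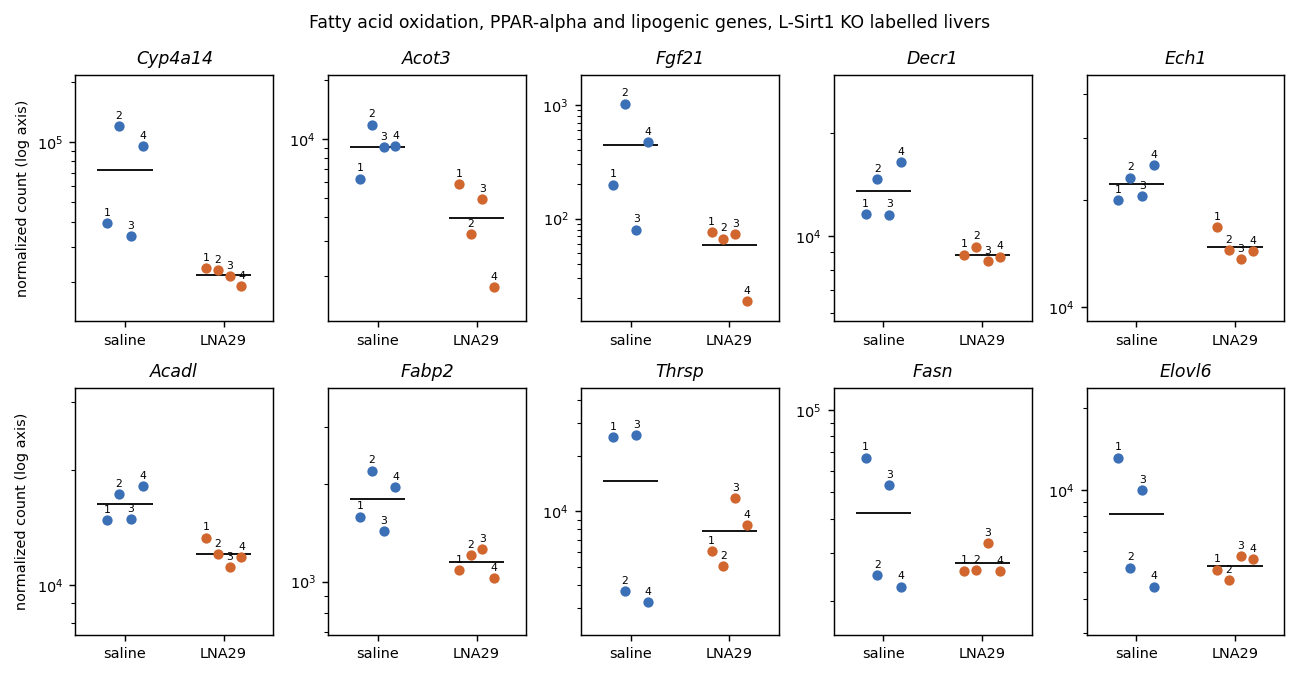
Normalized counts (y axis, log scale) of 10 fatty acid oxidation, PPARα and lipogenic genes in the 4 saline and 4 LNA29 mice, numbered by mouse, with the mean as a line. Saline mice 2 and 4 are highest for Cyp4a14 and Fgf21 and lowest of their group for Thrsp, Fasn and Elovl6.

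The remaining large falls were single genes. Slc39a5, a zinc importer, had 24.8, 36, 51.7 and 27.6 normalized counts against 76.6, 161, 78.3 and 111 (log2 -1.57 ± 0.31, adjusted p = 0.0887), and was the only 1 of 21 zinc transporter and metallothionein genes to fall. Gbp2b, an interferon-inducible GTPase gene, had 100.02, 31.9, 76 and 52.3 normalized counts against 146 to 165 (log2 -1.39 ± 0.30, adjusted p = 0.13). The predicted genes Gm17655 (log2 -1.67, adjusted p = 0.0603) and Gm43429 (2.29-fold lower, adjusted p = 0.186), the phospholipase-like gene Plcxd1 (log2 -1.41, adjusted p = 0.165) and the hypoxia-responsive gene Ankrd37 (log2 -1.27, adjusted p = 0.189) completed the 10 largest falls among called genes whose groups did not overlap. Exons of Plcxd1 and Ankrd37 overlap genes on the opposite strand. Of 16 alternatives, Gm17655 and Slc39a5 stayed past the limits in 11, Gbp2b in 9, Plcxd1 and Gm43429 in 5 and Ankrd37 in 3. None of the 8 of these 10 with an annotated 3′ UTR holds a match. Smaller falls were Ldhd, a lactate dehydrogenase acting on D-lactate, with 4593 to 6382 against 7084 to 7639 (log2 -0.40 ± 0.10, adjusted p = 0.189), and the transcription factor gene Onecut2, with 2925 to 3465 against 3986 to 5493 (log2 -0.61 ± 0.11, adjusted p = 0.0756), which stayed past the limits in 5 and 14 of 16 alternatives. Onecut2 holds 1 match, and it is 1 of the 2 fallen genes that do.

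Of 15 Kupffer cell and macrophage markers 2 fell and 0 rose, with a median of -0.26. A fold change below 1 was seen for 11 of the 15. By limma 9 had an unadjusted p under 0.05, against 11.2% of all genes tested. For 5 markers all LNA29 mice lay below all saline mice, against 3.3% of all genes tested. The summed normalized counts of 15 Kupffer cell and macrophage markers were 23643, 19711, 23798 and 19262 in LNA29 mice 1 to 4 and 24464, 26854, 25416 and 28628 in saline mice 1 to 4, without overlap. Abundant markers weigh most in this sum. The mean of the 15 log2 values, in which each marker weighs the same, overlapped. It was 9.44, 9.19, 9.45 and 9.08 in LNA29 mice and 9.24, 9.14, 9.11 and 9.52 in saline mice. Of the 15, Vsig4, a complement receptor of Kupffer cells, fell from 1536 to 1955 normalized counts to 1072 to 1321 (log2 -0.54 ± 0.11, adjusted p = 0.0891). Clec4f, a lectin that marks mouse Kupffer cells, fell from 6084 to 6673 to 4894 to 5651 (log2 -0.29 ± 0.08, adjusted p = 0.189). Vsig4 stayed past the limits in 9 alternatives and Clec4f in 4. C1qa, C1qb and C1qc, the complement genes of macrophages, had changes of -0.26 to -0.31 and did not pass. None of the 15 markers fell with the flow cell as a covariate or without LNA29 mouse 2, LNA29 mouse 4 or saline mouse 4. Gpnmb, a gene of lipid-laden macrophages, went the other way without passing, with 33 to 80 against 2 to 33 normalized counts (log2 2.24, adjusted p = 0.244). In bulk liver, fewer cells of a type and less RNA per cell cannot be told apart.

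Of 11 sinusoidal endothelial markers 2 fell and 0 rose, with a median of -0.05 and 4 of the 11 above 0. Stab1, a scavenger receptor, had 1639.8, 1569.6, 1649 and 1672 normalized counts against 2501, 2251, 2476 and 2238 (log2 -0.53 ± 0.08, adjusted p = 0.028), and stayed past the limits in all 16 alternatives. Lyve1, a hyaluronan receptor, had 178, 306, 192 and 332 against 513, 504, 438 and 799 (log2 -1.17 ± 0.25, adjusted p = 0.115). The relatives and partners Stab2 (1717 to 2508 over all 8 mice, log2 0.08, adjusted p = 0.843), Kdr (log2 0.00, adjusted p = 0.999) and Cdh5 (log2 0.02, adjusted p = 0.948) did not pass. Summed over the 11 markers the normalized counts were 17787 to 18965 with LNA29 and 19430 to 20295 with saline, again without overlap. Abundant markers weigh most in this sum. The mean of the 11 log2 values was 10.30 to 10.40 with LNA29 and 10.51 to 10.57 with saline. Both measures include the called genes Stab1 and Lyve1, so they do not show a fall of the other markers.

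By limma, the calls were 0 of 8 cholangiocyte, 0 of 9 lymphocyte, 0 of 6 red blood cell and 0 of 10 hepatocyte markers, with 0, 0, 0 and 2 at an unadjusted p under 0.05 and medians of 0.08, -0.11, -0.27 and 0.08. All 6 red blood cell markers had a fold change below 1. Krt7, of bile duct cells, was the cholangiocyte marker with the lowest p (log2 -0.44, adjusted p = 0.643), Cd3d the lymphocyte marker (log2 -0.32, adjusted p = 0.678), Hbb-bt the red blood cell marker (log2 -0.36, adjusted p = 0.731) and Cps1, of the urea cycle, the hepatocyte marker (log2 0.60, adjusted p = 0.323). The 10 hepatocyte markers summed to 5642790 to 7622120 normalized counts a mouse. Adipocyte markers, 0 of 5 called and 0 at an unadjusted p under 0.05, summed to 495, 73.4, 183 and 40.8 normalized counts in LNA29 mice 1 to 4 and 25, 31.4, 112 and 1274 in saline mice 1 to 4, so saline mouse 4 and LNA29 mouse 1 were high. Without those 2 mice 87 genes rose and 20 fell. Of the pancreatic acinar markers only Cela2a reached the minimum level (log2 0.96, adjusted p = 0.393). Xist was present and Y-linked genes were under the minimum in the female mice.

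Clock genes were not called, but 1 mouse stood far apart. limma called 0 of 19, with 9 at an unadjusted p under 0.05. Dbp, an output gene of the circadian clock that peaks late in the day, had 81.4, 86.6, 48.5 and 68.4 normalized counts with LNA29 and 217, 146, 7449 and 480.3 in saline mice 1 to 4. Arntl, which peaks in the opposite phase, was 382 in saline mouse 3 and 1049.7 to 1949 in the other 7 mice. Npas2, its relative, had 1137, 670.4, 1047 and 1022 against 608, 577, 102 and 345 (log2 1.51 ± 0.50, adjusted p = 0.293). The median of the list was -0.18, and without saline mouse 3 it was 0.17, with 2 genes risen and 1 fallen. The hour of death of each mouse is not given in the sources used here. Acute phase genes also gave 0 calls of 23, with 5 at an unadjusted p under 0.05, and saline mouse 4 was high for Saa2 (2682 against 245 to 597 in the other 7 mice) and Lcn2 (2189 against 171 to 383). Orm1, the acute phase gene with the lowest p, had a log2 change of -0.64 (adjusted p = 0.275). The list median was -0.09, and without saline mouse 4 it was -0.02 with 1 gene fallen. Interferon-stimulated genes (0 of 23, 2 at an unadjusted p under 0.05, median -0.02) and bile acid genes (0 of 19, 2 at an unadjusted p under 0.05, median 0.01) showed no common shift, with Trim30d (log2 0.40, adjusted p = 0.247) and Cyp27a1 (log2 -0.28, adjusted p = 0.266) closest to the limits.

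To show where these livers differ from others, the same contrast was set beside that of the 13 WT/Floxed livers. There, 383 of 15811 genes rose (2.42%) and 305 fell (1.93%). Of the 189 genes that rose in L-Sirt1 KO labelled livers, 67 also rose in WT/Floxed livers, and of the 108 that fell 15 also fell, while 0 genes passed in opposite directions. A gene that passed in 1 group only is not thereby shown to differ. The difference between the responses was tested as an interaction over 15601 genes, and 7 passed at an adjusted p under 0.2 (0.0449%). At an adjusted p under 0.05 limma called 0, with 1426 at an unadjusted p under 0.05 (9.14%). The groups differ in more than genotype, since the WT/Floxed group pools wild type mice (4 with LNA29, 3 with saline) and floxed mice (4 and 2), and each table was normalized on its own. The study's methods give a lower age range for C57BL/6J mice than for knockout and floxed mice, so age may differ too, and the age of each mouse is not given.

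Among the 7, Cldn1 had log2 changes of 1.19 ± 0.11 in L-Sirt1 KO labelled and 0.41 ± 0.08 in WT/Floxed livers, a difference of 0.78 (adjusted p = 0.0986). Its saline level was 3919 ± 570.2 normalized counts in the former and 6575 ± 474 in the latter, and its LNA29 level 8872 ± 454 and 8779 ± 896. The antigen peptide transporter Tap1 rose in L-Sirt1 KO labelled livers, from 1126 to 1233 normalized counts in saline mice to 1524 to 1779.7 (log2 0.49, adjusted p = 0.0597), and had a change of -0.27 in WT/Floxed livers (difference 0.76, adjusted p = 0.157). Cyp3a44, a female-biased cytochrome P450 with close relatives, had changes of 0.97 and -1.63 (difference 2.59, adjusted p = 0.144). Gm15638, a non-coding gene, stood at 157 to 227 normalized counts with LNA29 and 146 to 224 with saline in L-Sirt1 KO labelled livers, and had a log2 change of 1.36 in WT/Floxed livers (difference -1.31, adjusted p = 0.0986). The signalling adaptor gene Traf4 (difference -0.73), the mismatch repair gene Mlh3 (0.55) and the fucosyltransferase gene Fut1 (-3.98, at 2.09 to 57.4 normalized counts) followed at an adjusted p of 0.168 each. The number of genes passing was 19 with the flow cell as a covariate and 110 with a term for WT or floxed mice. It was 0 without L-Sirt1 KO labelled LNA29 mouse 2 or 4 or WT/Floxed saline mouse 3, was also 0 without L-Sirt1 KO labelled saline mice 2 and 4, and ranged up to 233 when another library was left out.

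For the gene lists, matrix and DNA methylation medians had the same sign in both genotype labels. The medians in L-Sirt1 KO labelled and WT/Floxed livers were 0.58 and 0.66 for fibrillar collagens, 0.31 and 0.41 for basement membrane, 0.35 and 0.20 for elastic fibres, and 0.73 and 0.56 for DNA methylation. The fat oxidation lists were -0.27 and 0.01 (mitochondrial), -0.36 and 0.00 (peroxisomal) and -0.59 and 0.20 (PPARα response). Of their members 10 of 20, 8 of 15 and 9 of 20 had an unadjusted interaction p under 0.05, against 9.14% of all genes, and 0 passed at an adjusted p under 0.2. Without saline mice 2 and 4 the numbers were 2 of 20, 1 of 15 and 3 of 20, against 6.59% of all genes, and the L-Sirt1 KO labelled medians were -0.13, -0.15 and -0.15. The median differences between labels were -0.36, -0.33 and -0.90 with all mice and -0.19, -0.16 and -0.33 without those 2. Those mice were singled out by these same genes, and fewer mice weaken a test. The smaller numbers therefore do not show what the difference rests on. Fgf21 had changes of -2.51 and 1.90 (interaction adjusted p = 0.231) and Cyp4a14 of -1.53 and 0.28 (adjusted p = 0.238). De novo lipogenesis had medians of -0.16 and -0.51, with 0 of 21 genes at an unadjusted interaction p under 0.05. Without saline mice 2 and 4 the medians were -0.51 in both labels, with 1 of 21. That match follows a choice of controls by these same genes, so it does not show equal responses. Kupffer cell markers had medians of -0.26 and -0.32. Female-biased liver genes had medians of 0.09 and -0.39, with 10 of 28 at an unadjusted interaction p under 0.05. Without saline mice 2 and 4 the L-Sirt1 KO labelled median of the female-biased list was -0.04, with 8 of 28. At an unadjusted interaction p under 0.05 (limma, all mice), other lists also exceeded the 9.14% of all genes. Hepatocyte markers had 4 of 10, ketone body synthesis 3 of 6 and bile acid genes 6 of 19. Male-biased genes had 4 of 17 and basement membrane 5 of 23. Cell cycle (0 of 22) and acute phase genes (0 of 23) did not exceed it. Leaving out saline mice 2 and 4 gave 3 of 10 hepatocyte and 3 of 23 basement membrane genes.

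**Figure D5:**
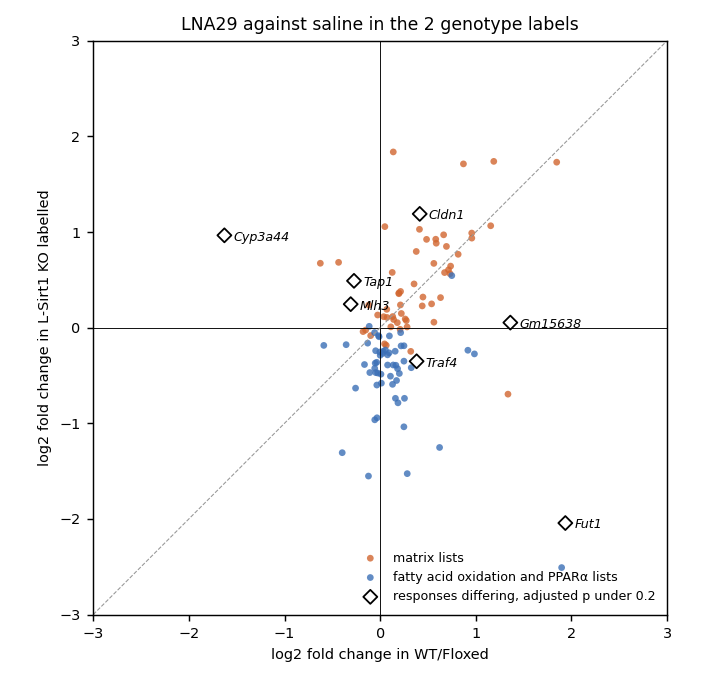
Log2 fold change of LNA29 against saline in WT/Floxed livers (x axis) and L-Sirt1 KO labelled livers (y axis) for matrix genes, fatty acid oxidation and PPARα genes, and the 7 genes with an interaction adjusted p under 0.2 (diamonds), with a dashed line of equal change. Most matrix genes lie above 0 on both axes, and most oxidation genes lie near 0 on the x axis and below 0 on the y axis.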

How the data were processed

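RNA-seq of mouse liver (polyadenylated RNA, TruSeq) was analysed from the deposited tables. Per the labels and the study's methods, the authors aligned reads to mm10 with STAR, estimated gene counts with Salmon and divided them by DESeq2 size factors in a table per genotype, and these deposited values are a normalized signal. Whole reads could not be recovered from them, so no count model was run. Depth was estimated as the summed values divided by the most frequent value, and the tests cover the spread between the 8 mice, 4 a group. Of 48440 entries, 381 without a name (0.0134% of counts) and 130 with a repeated name (0.0897%) were left out.

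Differences were tested with limma 3.58.1 in R 4.3.3 (lmFit, then eBayes with its trend option) on log2 values after adding 1, so fold changes of low genes are understated, for genes with a mean of at least 10, with Benjamini-Hochberg adjustment over all genes tested. A gene was called at p under 0.05, adjusted p under 0.2, mean above 50 and fold change above 1.2. On simulated data of 15812 genes for this comparison 89% of 200 changed genes were recovered. That share covers all 200 together, and recovery at small fold changes was not tested. Seed matches were searched on the transcript strand in the annotated 3′ UTRs of GRCm38 (GENCODE M21) with Python 3.11.15.

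The comparison, the 35 gene lists and the named genes were chosen with earlier results of these data known. Named by rule were the called genes with non-overlapping groups that had the 10 highest and 10 lowest fold changes, 20 genes the study names, up to 4 called members of each list (or the member with the lowest p) and Sirt1, and other genes were chosen after their values were seen. Some genes that this rule names are not reported here. Alternatives were a pseudocount of 10, no minimum, TMM scaling, sample weights, the flow cell, a replicate block and each library left out, and 2 pairs of libraries left out, added after the data were seen.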

Additional observations from a re-analysis of the deposited data

Results flagged for a closer look

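Of 214 groups of 4 libraries tested among the named genes, 13 held a library far from the other 3 by Dixon's test. This is near the share of about 5% that chance gives, so the count does not single out any mouse. LNA29 mouse 1 was the library apart for Fam81a (95.3 normalized counts), Lpl (4301), Mmp2 (280.2) and Cd3d (39.8). Saline mouse 3 was apart for Loxl4 (150.4), Tet3 (895) and Mcm5 (192). Saline mouse 1 was apart for Traf4 (1622) and Ing4 (1203), and LNA29 mouse 2 for Acaa2 (46415) and Cela2a (110.1). LNA29 mouse 3 stood above its group for Fasn (32659), and LNA29 mouse 4 below its group for Fgf21 (18.6).

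The LNA29 response differed between L-Sirt1 KO labelled and WT/Floxed livers at an adjusted interaction p under 0.2 (limma) for 7 genes. The adjusted p was 0.0986 for Cldn1 and Gm15638, 0.144 for Cyp3a44, 0.157 for Tap1, and 0.168 for Traf4, Mlh3 and Fut1. The differences on the log2 scale, L-Sirt1 KO labelled minus WT/Floxed, were 0.78 for Cldn1, 0.76 for Tap1, 2.59 for Cyp3a44, 0.55 for Mlh3, -0.73 for Traf4, -1.31 for Gm15638 and -3.98 for Fut1.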

How the results depend on the processing

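Against 189 genes higher and 108 lower, the numbers were 113 and 47 with no minimum, 443 and 361 with sample weights, 76 and 27 with the flow cell, 87 and 20 without LNA29 mouse 1 and saline mouse 4, and 34 and 3 at an adjusted p under 0.05. Leaving out each library gave 56 to 231 higher and 21 to 205 lower. The fewest of the 297 calls kept were 74, without LNA29 mouse 4. With the replicate number as a block, 94 were higher and 51 lower. Correlations of same-numbered mice ran from -0.082 to 0.185, and of the LNA29 mice only mouse 1 correlated best with its own number. These values do not show that the numbers mark pairs, but so few mice cannot exclude it. Against 7 genes with a different response between genotype labels, there were 1220 with sample weights, 19 with the flow cell, 110 with a term for WT or floxed mice, 0 with the replicate block, 0 at an adjusted p under 0.05, 0 without saline mice 2 and 4, and 0 to 233 when each library was left out.

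List medians moved by more than the spread between replicates in 15 cases and by less in 546. Without saline mice 2 and 4 the medians were 0.22 for reported targets, -0.15 for peroxisomal oxidation, -0.51 for de novo lipogenesis, -0.23 for fetal genes, 0.13 for zinc genes, -0.97 for clock genes and 0.12 for genes with a seed match. The seed-match median was 0.13 for the 8-base match alone, and the fetal median was 0.12 without LNA29 mouse 1 and saline mouse 4. With each library left out, medians ranged from 0.11 to 0.18 for reported targets, -0.11 to 0.092 for fetal genes, -0.11 to 0.025 for hepatokines, -0.036 to 0.10 for zinc genes and -0.099 to -0.033 for sinusoidal markers. The sign changed for Acss2, Acly, Thrsp and Gm15638, none of which passed the limits. With sample weights they were at 0.19, 0.13, 0.29 and -0.045, and with each library left out at -0.28 to 0.15, -0.26 to 0.17, -0.86 to 0.15 and -0.056 to 0.15 on the log2 scale. Of the other values of named genes, 1314 stayed on their side of the limits, 340 no longer passed them and 41 newly passed. The causes were not tested, and 4 mice a group limit the precision.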

Other observations

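The predicted gene Gm10335, chosen after its values were seen and below the mean of 50 used for calls, was listed at 0 in all 4 LNA29 mice and had 26.6, 50.2, 58.8 and 64 normalized counts in saline mice 1 to 4.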
